A study of Mus musculus with 26 samples.

Results

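The regions described here are stretches of RNA in which mouse cells lacking the Tet enzymes, or differentiating cells, carried a 5-hydroxymethylcytosine (5hmC) peak and wild-type embryonic stem cells carried none. They were selected on the measured presence of peaks. Intervals of 9 peak lists, from 3 groups with 3 replicates each, were merged wherever they overlapped by at least 1 bp, which gave 15383 regions, of which 3699 had no peak in any wild-type stem cell library. A region was kept when it lay among these and had a peak in both replicates 2 and 3 of TKO ESC (TKO-gained), or in both replicates 2 and 3 of WT EB (EB-gained). The rule was met by 510 of the 15383 regions. Among them 317 were TKO-gained (2.06% of all regions) and 275 were EB-gained (1.79%). A total of 82 regions met both rules (0.533%), so that 235 were TKO only and 193 were EB only.

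RNA was enriched for 5hmC with an anti-5hmC antibody (hMeRIP-seq) and sequenced beside its input. WT ESC are wild-type mouse embryonic stem cells kept in leukaemia inhibitory factor (LIF), TKO ESC are stem cells of the genotype Tet1-Tet2-Tet3-KO in the same medium, and WT EB are the cell aggregates (embryoid bodies) obtained from wild-type stem cells after 4 days without LIF. Lists from 4 further libraries entered the comparisons as outside readouts: Tet2-KI ESC, picked clones of wild-type stem cells in which CRISPR added a triple tag (Flag, HA and Twin-Strep) to the endogenous Tet2, and Tet2deltaRBD-KI ESC, in which the tagged Tet2 lacks its RNA-binding domain (2 libraries each). Embryoid bodies are mixtures of cell types, and a peak that arises in them cannot be assigned to 1 type of cell. A peak list gives neither expression nor sequencing depth, so a region without a peak is one in which none passed the caller's threshold. A gained region and a more abundant transcript cannot be told apart from these lists, and the identity of the cells could not be checked against marker expression.

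Tet proteins are dioxygenases that oxidise 5-methylcytosine to 5hmC in DNA, and Tet2 can also oxidise methylated cytosine in RNA. The antibody used in hMeRIP-seq pulls down RNA fragments that carry the oxidised base, so that a peak is a place where such fragments pile up over the input. Loss of all 3 Tet genes removes the known enzymes of this reaction, and withdrawal of LIF lets stem cells leave pluripotency and form derivatives that include primitive endoderm on the surface of the embryoid body.

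The sequences of 8 gained intervals are shown because they let a reader see 2 features described further on, contact with an exon and the share of purines. They are the highest-ranked regions of each set by the lowest fold enrichment in the defining replicates, leaving out intervals that touch an untranslated region, intervals in noncoding genes and 1 further intergenic interval. All are genome sequence of mm9 (NCBIM37), 200 bases around the summit, read 5′ to 3′ on the strand of the gene. Capitals mark bases in an annotated exon of a coding transcript, and in the intergenic interval, which is read on the plus strand, the longest run of purines.
TKO only, intergenic, chr16:51002339-51002538: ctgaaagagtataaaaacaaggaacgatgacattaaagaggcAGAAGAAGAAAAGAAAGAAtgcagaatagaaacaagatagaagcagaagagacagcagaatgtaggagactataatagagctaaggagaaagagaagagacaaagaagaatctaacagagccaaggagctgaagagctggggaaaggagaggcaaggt
TKO only, Sec62 intron, plus strand, chr3:30711069-30711268: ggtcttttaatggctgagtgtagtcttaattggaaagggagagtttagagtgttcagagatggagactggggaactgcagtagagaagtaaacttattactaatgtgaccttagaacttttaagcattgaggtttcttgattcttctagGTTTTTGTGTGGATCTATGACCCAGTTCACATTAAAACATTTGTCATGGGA
TKO only, Myef2 intron, minus strand, chr2:124941185-124941384: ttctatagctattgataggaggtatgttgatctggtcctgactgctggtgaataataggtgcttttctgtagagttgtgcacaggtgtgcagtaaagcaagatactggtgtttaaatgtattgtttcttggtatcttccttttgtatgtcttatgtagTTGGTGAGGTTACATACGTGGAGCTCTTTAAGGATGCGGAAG
EB only, Cdc73 coding exon, minus strand, chr1:145524813-145525012: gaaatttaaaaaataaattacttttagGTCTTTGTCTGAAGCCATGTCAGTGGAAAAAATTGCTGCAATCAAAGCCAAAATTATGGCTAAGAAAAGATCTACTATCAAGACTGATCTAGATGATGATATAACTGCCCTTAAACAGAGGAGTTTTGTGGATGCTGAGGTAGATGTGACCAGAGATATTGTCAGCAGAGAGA
EB only, Top2b intron, plus strand, chr14:17252743-17252942: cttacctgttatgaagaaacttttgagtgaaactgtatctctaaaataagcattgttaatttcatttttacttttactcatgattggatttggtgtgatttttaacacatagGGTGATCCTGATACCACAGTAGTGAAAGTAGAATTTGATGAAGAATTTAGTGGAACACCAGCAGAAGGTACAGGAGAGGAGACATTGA
EB only, Tcea1 intron, plus strand, chr1:4883374-4883573: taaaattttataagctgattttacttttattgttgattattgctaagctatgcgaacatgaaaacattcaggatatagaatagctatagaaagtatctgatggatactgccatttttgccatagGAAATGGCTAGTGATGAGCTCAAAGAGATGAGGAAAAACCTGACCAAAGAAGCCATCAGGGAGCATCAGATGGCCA
Both, Rsbn1l coding exon, minus strand, chr5:20425729-20425928: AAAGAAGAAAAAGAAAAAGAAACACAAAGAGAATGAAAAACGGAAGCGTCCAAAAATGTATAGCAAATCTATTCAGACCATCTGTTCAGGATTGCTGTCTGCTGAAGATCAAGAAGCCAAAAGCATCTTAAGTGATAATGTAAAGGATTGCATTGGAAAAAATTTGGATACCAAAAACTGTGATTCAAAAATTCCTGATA
Both, Ccdc34 intron, plus strand, chr2:109884240-109884439: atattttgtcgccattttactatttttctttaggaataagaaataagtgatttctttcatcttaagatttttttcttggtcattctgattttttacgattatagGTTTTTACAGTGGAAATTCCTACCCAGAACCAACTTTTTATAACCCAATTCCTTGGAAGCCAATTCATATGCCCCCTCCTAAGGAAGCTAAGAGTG

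In the 5 intronic intervals above the summit lay in the intron, while between 42 (Myef2) and 96 (Ccdc34) of the 200 bases belonged to the next exon. The Rsbn1l interval lay wholly in an exon. Purines made up 80.0% of the intergenic interval on chromosome 16, 64.5% of the Rsbn1l interval and 41.5% of the Ccdc34 interval. The intergenic interval held GAAGAA at 2 separate places and the Top2b interval at 2.

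The defining values come first, as a description, since the rule used them. The deposited fold enrichment of IP over input at the summit had a median of 7.72 in TKO ESC replicate 2 over the 317 TKO-gained regions (range 3.13 to 33.0) and of 6.42 in replicate 3 (2.71 to 20.2). Over the other regions of the same 2 libraries the medians were 7.28 and 6.52. For the 275 EB-gained regions the median was 6.83 in WT EB replicate 2 (3.37 to 17.1) and 8.75 in replicate 3 (3.29 to 49.3), against 7.51 and 6.98 in the other regions. The median of EB-gained peaks thus stood above that of the remaining peaks in replicate 3 and below it in replicate 2. The values of the 2 replicates followed each other loosely across regions, with Pearson's r on the log2 scale of 0.28 for the TKO-gained regions (n = 317) and 0.36 for the EB-gained regions (n = 275). Regions are not independent replicates, and each pair of libraries shares its genes and base composition.

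**Figure D1:**
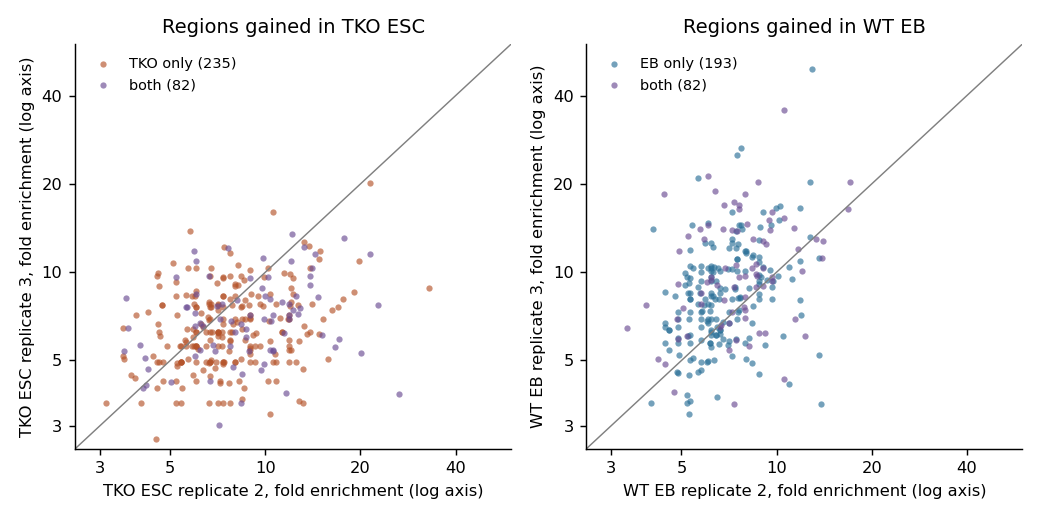
Fold enrichment of IP over input (ratio, log axes) in replicate 2 (x axis) and replicate 3 (y axis) of TKO ESC, left, and WT EB, right; each point is 1 gained region, coloured by set, and the line marks equal values. The points scatter widely about the line, and 69.1% of the EB-gained regions lie above it, against 32.5% of the TKO-gained regions.

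At the edge of the rule, regions with peaks in TKO ESC replicates 2 and 3 and in exactly 1 WT ESC library numbered 365. Their median fold enrichment in TKO ESC replicates 2 and 3 was 8.47 and 6.94, and the single wild-type peak lay in WT ESC replicate 2 in 216 of them, in replicate 3 in 132 and in replicate 1 in 17. Where WT ESC replicate 2 held that peak, its median was 6.07. Regions with peaks in WT EB replicates 2 and 3 and in 1 WT ESC library numbered 272, with medians of 7.69 and 9.08. On the other side, 2050 regions without a WT ESC peak had a peak in only 1 of TKO ESC replicates 2 and 3, and 1578 had one in only 1 of WT EB replicates 2 and 3, of which 1449 were in replicate 3. Regions that just failed for a single wild-type peak were therefore about as many as the members and had similar fold enrichment.

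Replicate 1 of TKO ESC and of WT EB took no part in the rule, and gained regions were rarely found there. A peak in TKO ESC replicate 1 was listed for 7 of the 317 TKO-gained regions, 2.21% (95% Clopper-Pearson interval 0.892 to 4.50%). The background over all 3699 regions without a WT ESC peak was 3.84%. A peak in WT EB replicate 1 was listed for 3 of the 275 EB-gained regions, 1.09% (0.226 to 3.15%), against a background of 4.08%. For comparison, 39.6% of the 548 regions shared by replicates 2 and 3 of all 3 groups had a peak in TKO ESC replicate 1, and 18.2% in WT EB replicate 1. The background includes regions that were listed only because replicate 1 itself had a peak. These 2 libraries had the shortest lists, 964 and 498 peaks, and their descriptions begin with 1608 and 1610, while those of replicates 2 and 3 begin with 1703. The part of list length and of these prefixes in the low shares was not tested.

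The 7 TKO-gained regions with a peak in TKO ESC replicate 1 lay in Riok2, Smarcc2, Odz3, Tbca and Rdx and at 2 intergenic places. The region in the 3′ untranslated region of Riok2, a kinase of ribosome maturation (chr17:17531310-17531588), had a fold enrichment of 10.6, 33.0 and 8.84 in TKO ESC replicates 1, 2 and 3. It had no peak in any WT EB library. The intronic region of Smarcc2, a core subunit of SWI/SNF chromatin remodelling complexes (chr10:127921216-127921423), had 6.38, 8.19 and 10.6, and also no WT EB peak. The intronic region of Tbca, which encodes a tubulin folding cofactor (chr13:95602329-95602538), met both rules, with 7.25, 11.9 and 7.79 in TKO ESC replicates 1 to 3 and 10.6 and 15.3 in WT EB replicates 2 and 3. Riok2 and Smarcc2 each had peaks in 3 of the 4 knock-in libraries, and Tbca had peaks in both Tet2-KI ESC libraries and in neither Tet2deltaRBD-KI ESC library.

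Among EB-gained regions, those with a peak in all 3 WT EB libraries included regions of Amot and Snx2. Amot encodes angiomotin, a scaffold of cell junctions that restrains the Hippo effector Yap, and its 3′ untranslated region (chrX:141884133-141884407) had a fold enrichment of 8.58, 6.07 and 4.97 in WT EB replicates 1 to 3. No TKO ESC library and no knock-in library had a peak there. The intronic region of Snx2, a sorting nexin of endosomes, had 4.48, 7.21 and 5.2, with 7.1 in TKO ESC replicate 2.

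Part of each kind of gain was listed in 1 library of the other group. Of the 235 TKO only regions, 91 had a peak in WT EB replicate 3, 11 in WT EB replicate 2 and 133 in no WT EB library. Of the 193 EB only regions, 89 had a peak in TKO ESC replicate 2, 23 in TKO ESC replicate 3 and 80 in no TKO ESC library, and 1, in Top1, had a peak in TKO ESC replicate 1 alone. The 91 regions are 38.7% of the TKO only set, and 46.6% of regions without a WT ESC peak had a peak in WT EB replicate 3. The 89 are 46.1% of the EB only set, against 48.8% with a peak in TKO ESC replicate 2. The split removes from both sets every region with peaks in replicates 2 and 3 of the other group, which lowers these shares. Over all TKO-gained regions, 54.6% had a peak in WT EB replicate 3 and 29.3% in replicate 2, against 46.6 and 10.9%. Over all EB-gained regions, 62.2% had a peak in TKO ESC replicate 2 and 38.2% in replicate 3, against 48.8 and 23.8%. The library of the other group that most often held a peak was the one with the longer list, 3532 peaks in WT EB replicate 3 against 1831 in replicate 2, and 4323 in TKO ESC replicate 2 against 3262 in replicate 3. Both gains were defined against the same WT ESC libraries.

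**Figure D2:**
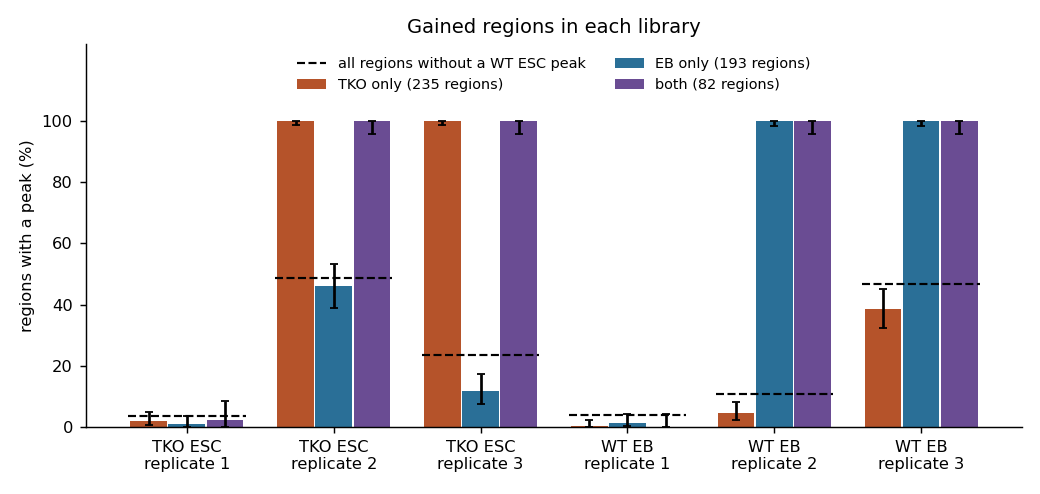
Share of TKO only, EB only and both regions with a peak (y axis, percent; bars, with 95% Clopper-Pearson intervals) in each TKO ESC and WT EB library (x axis); dashed lines give the share of all regions without a WT ESC peak. The bars at 100% are fixed by the rule, whereas those in replicate 1 of both groups lie at 2.44% or less.

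Most gained regions lay in coding genes and touched an exon. Of the 510 regions, 466 lay in coding genes, 13 in other annotated genes and 31 between genes. By the position of the summit, 293 of the 466 were intronic, 147 lay in coding sequence, 20 in 3′ untranslated regions and 6 in 5′ untranslated regions. Intergenic regions numbered 24 of the 235 TKO only regions, 4 of the 193 EB only regions and 3 of the 82 regions of both. Over the 510 regions this was 6.08%, against 7.57% of the 3699 regions without a WT ESC peak, from which the members were drawn, and 21.0% of all 15383 regions. Of the members in coding genes 62.9% were intronic and 31.5% lay in coding sequence, close to the 63.4 and 29.1% of the regions without a WT ESC peak.

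The intronic summits of EB gains were mostly close to splice sites, and those of TKO gains less often. For the 141 intronic EB-gained regions the median distance to the nearest exon was 44.0 bases, and for the 187 intronic TKO-gained regions 355 bases. It was 761.5 bases over the intronic regions without a WT ESC peak, 630.5 over those shared by the 3 groups and 1798 over all intronic regions. Within the 200-base interval, an exon was touched by 72.3% of intronic EB-gained regions, 47.6% of intronic TKO-gained regions and 82.9% of the 35 intronic regions of both. The same share was 40.2% over the 2116 intronic regions without a WT ESC peak and 42.1% over the 247 shared ones, both near that of the TKO gains, and 22.1% over all 8508 intronic regions. It was 6.41% in the mirror set, 546 intronic regions among the 1075 regions with peaks in WT ESC replicates 2 and 3 and none in any TKO ESC or WT EB library. Exons upstream and downstream were touched about equally, with 82 gained summits within 100 bases of a donor site and 80 within 100 bases of an acceptor site. Regions in coding genes that touched no exon at all were 98 of 281 for the TKO gains (34.9%) and 39 of 262 for the EB gains (14.9%). They made up 37.9% of regions without a WT ESC peak, 28.0% of shared regions, 56.1% of all regions and 78.0% of the mirror set, so that the TKO gains lay near the regions they were drawn from.

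**Figure D3:**
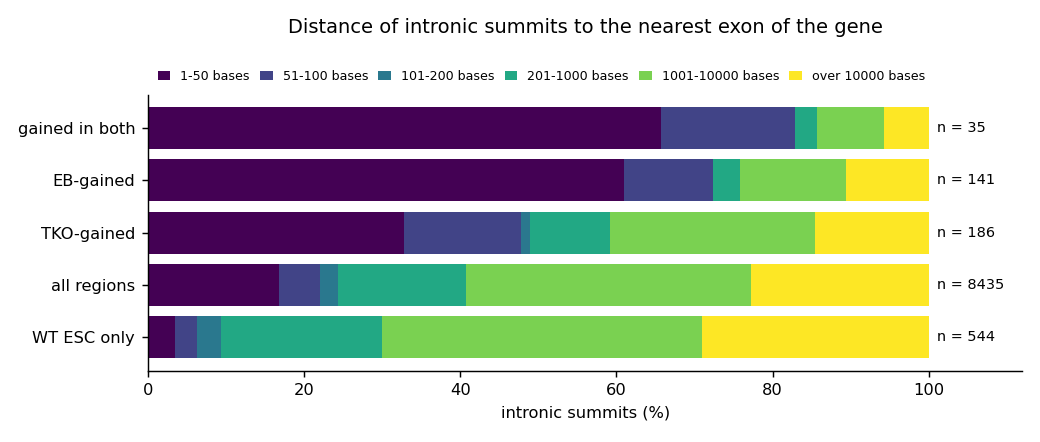
Distance from intronic summits to the nearest exon of the same gene, as stacked shares (x axis, percent of intronic summits) for 5 sets of regions (y axis, with their number; WT ESC only is the mirror set). Bins of up to 100 bases fill most of the bars of the EB-gained set and of both, and 3.49 and 2.76% of the WT ESC only bar.

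Per library, the intronic share of gained peaks was 65.1 and 69.8% in TKO ESC replicates 2 and 3 and 53.8 and 51.5% in WT EB replicates 2 and 3. The rule requires a peak in both replicates, so the 2 libraries of a group were read on the same regions, 281 in coding genes for TKO ESC and 262 for WT EB. They differ only where the summits differ, and their spread is not an error between replicates. The means were 67.4 and 52.7%, a difference of 14.8 percentage points, which is given without a test. The remaining peaks of these libraries, which the rule did not pair, held 70.5% ± 0.473 and 54.3% ± 0.303 (SD, n = 2 each), a difference of 16.1 points (two-sided exact permutation test, p = 0.333, the smallest value that 2 against 2 libraries can give). When any contact with an exon counted as exonic, the share without an exon averaged 35.2% for TKO gains and 15.1% for EB gains, again over the same regions in both libraries. For the remaining peaks it was 51.2% ± 0.189 and 30.2% ± 3.67 (SD, n = 2 each).

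Gained intervals held more purines on the strand of the gene than the windows beside them, as regions of the other sets did, and less cytosine. Over the 479 gained regions in annotated genes, purines made up 57.5% of the bases of the interval and 49.4% of windows 1 kb to each side. Cytosine, the base that carries the mark, made up 15.5% of the interval against 18.9% of the flanking windows, and adenine 33.7% against 28.7%. Over the 3419 genic regions without a WT ESC peak the interval held 56.4% purines and 18.2% cytosine, over all 12154 genic regions 56.9 and 19.2%, and over the 684 genic regions of the mirror set 55.4% and 21.4%. Intervals with at least 65% purines were fewer among gained regions, 14.4%, than among all genic regions (21.0%), shared regions (37.0%) and the mirror set (25.9%), and made up 13.3% of regions without a WT ESC peak. The cytosine share was lowest, 14.3%, in the 525 genic regions shared by all 3 groups. The libraries are not stated to keep the strand of the RNA, and the strand used here is that of the annotated gene.

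Pyrimidine content was close in the 2 gains. It averaged 42.4% in gained peaks of TKO ESC and 42.5% in those of WT EB, a difference of -0.15 points, TKO ESC minus WT EB, given without a test since both libraries of a group were read on the same regions. The remaining peaks of the libraries held 40.8% ± 0.630 and 41.1% ± 1.37 (SD, n = 2 each).

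Of the short motifs searched, GAAGAA, the core of purine-rich exonic splicing enhancers, was the most frequent in gained intervals. It was found on the strand of the gene in 99 of 268 EB-gained regions (36.9%) and 85 of 290 TKO-gained regions (29.3%), and on the opposite strand in 14 and 16. It was found in 25.3% of genic regions without a WT ESC peak, 40.2% of the shared regions and 20.4% of all genic regions, and in the windows beside EB-gained regions in 11.9%. Split by position, it was in 40 of the 100 EB-gained and 42.9% of the 84 TKO-gained regions in coding sequence, against 29.3% of regions without a WT ESC peak, 54.7% of shared regions and 33.1% of all regions there. Among intronic summits the shares were 33.3 and 24.6%, against 24.3, 25.9 and 17.7%. The motif was thus at least as frequent in the shared regions as in the gained ones, except in EB-gained introns. TCTCTC was found on the gene's strand in 4.48% of EB-gained and 5.17% of TKO-gained regions, 4.04% of regions without a WT ESC peak, 3.43% of shared regions, 8.84% of all genic regions and 18.3% of the mirror set. On the opposite strand, where it reads GAGAGA in the transcript, it was found in 20.9, 19.7, 17.1, 23.0, 22.5 and 30.7%. ACACAC was in 4.48% of EB-gained and 3.45% of TKO-gained regions against 8.19% of all, TGTGTG in 7.84 and 10.3% against 14.1%, an A run of 8 bases in 3.73 and 3.79% against 3.32%, and GGACT in 12.3 and 12.1% against 14.6%. In regions without a WT ESC peak these 4 motifs were in 3.83, 11.1, 3.54 and 14.7%. Tandem repeats, runs of at least 18 bases of a unit of up to 3 bases or of 20 bases of a unit of 4, were in 5 of 268 EB-gained and 6 of 290 TKO-gained regions (1.87 and 2.07%). They were in 3.69% of regions without a WT ESC peak, 2.10% of shared regions, 10.6% of all genic regions and 19.7% of the mirror set. A match is a run of letters and does not mark a bound protein, and overlapping motifs were each counted.

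The gained regions in coding genes fell in 342 genes, of which 256 held 1 region, 86 held 2 or more and 27 held at least 3. In 259 of the 342 genes (75.7%) WT ESC had a peak elsewhere in the same gene, and 83 genes had none. The nearest WT ESC peak lay at a median of 7095 bases from a gained region, and 64 of the 510 regions (12.5%) had one within 500 bases.

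Smarca5, the ATPase of ISWI chromatin remodelling complexes, had the most gained regions, 6, in a gene of 41.0 kb on chromosome 8 (83222406 to 83263396, minus strand). A region of both rules in an intron (chr8:83232429-83232849) had a fold enrichment of 7.63 and 12.1 in TKO ESC replicates 2 and 3 and of 11.7 and 12 in WT EB replicates 2 and 3. The other 5 were 2 TKO only and 3 EB only regions. WT ESC had 1 peak in the gene, against 30 in Atrx and 35 in Tpr, which held 4 gained regions each. These peaks were counted over the 3 WT ESC lists, so a place listed in more than 1 library counts each time.

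Uchl5, a deubiquitinase of the proteasome and of the INO80 complex, had 5 regions, all EB only and all without a TKO ESC peak. Their fold enrichment ran from 5.32 to 9.69 in WT EB replicate 2 and from 3.63 to 10.1 in replicate 3. Its neighbour Cdc73, a subunit of the Paf1 complex of transcription elongation, had 3 EB only regions. The highest of them, in a coding exon, had 12.8 and 13.2 in WT EB replicates 2 and 3 and no TKO ESC peak. The 2 genes, named for their gained regions, span 209 kb of chromosome 1 with 15 regions in all. Of the 15, these 8 were EB-gained and none was TKO-gained, against 275 and 317 of all 15383 regions.

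Other genes with 3 or 4 gained regions fell in several functional classes. Atrx, a chromatin remodeller of heterochromatin, had 4, as had Cwf19l2, a splicing factor homologue, Tpr, a nuclear pore basket protein, and Gm13242, a zinc finger gene. All 4 regions of Etl4 were TKO only and intronic. Supt16h, the large subunit of the histone chaperone FACT, Tcea1, an elongation factor, Top2b, a type II topoisomerase, and Xrn2, the exonuclease of transcription termination, had 3 each, of which all but 1 in Supt16h were EB only. Genes of the cytoskeleton with 3 regions were Kif5b and Kif20b, both kinesin motors, Ktn1, a kinesin-binding protein, and Rock2, a kinase of actomyosin contraction. Hsp90b1 and Hspa4, which encode chaperones, Caprin1, an RNA-binding protein of stress granules, Psip1, a chromatin reader, Atp11b, a phospholipid flippase, Ccdc18, Fam133b and the noncoding Gm13824 were also in the group, with Eda and Gpc3. Long genes offer more places for a peak, and gene length was not adjusted for.

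Gpc3 and Eda, 2 genes of development on chromosome X, had EB only regions alone. Gpc3 encodes glypican-3, a cell surface proteoglycan that limits growth, and its 3 intronic regions had 8.93, 11.8 and 8.01 in WT EB replicate 2 and 9.64, 8.01 and 11.6 in replicate 3. None had a TKO ESC peak, and 1 lay 23 bases from a WT ESC peak. Eda encodes ectodysplasin, a signal for skin appendages, and its highest region had 11.9 and 10.9 in WT EB replicates 2 and 3 and 5.41 in TKO ESC replicate 2. Chromosome X held 21 of the 275 EB-gained regions (7.64%), 13 of the 317 TKO-gained regions (4.1%) and 4.12% of all regions.

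The highest TKO only region lay between genes on chromosome 16, in the purine-rich interval shown above, 270 kb from the nearest coding gene. It had 21.5 and 20.2 in TKO ESC replicates 2 and 3 and no peak in any other library, the knock-in libraries included. Sec62, a subunit of the protein translocation channel of the endoplasmic reticulum, came next with 13.2 and 12.6, and had a peak of 7.15 in WT EB replicate 3. The 10 highest also held introns of the noncoding Gm17317 (13.8 and 12.2, with 22.9 in WT EB replicate 3), of Myef2 (14.7 and 11.1, with 14.9 in WT EB replicate 3), an RNA-binding repressor of myelin genes, of Utrn (19.8 and 10.9), the homologue of dystrophin, of Rsbn1l (10.6 and 16.0, with 8.44 in WT EB replicate 3) and of Tbca (10.2 and 10.3, with 5.43 and 11.4 in WT EB replicates 1 and 3). A coding exon of Atg3, an enzyme of autophagosome formation, had 13.8 and 10.3, with 14.8 in WT EB replicate 3. An intron of Gtpbp4, a GTPase of ribosome assembly, had 11.4 and 9.96, with 10.8 in WT EB replicate 2, and an intergenic region of chromosome 18 had 14.9 and 11.8. A WT EB peak was thus listed for 7 of the 10. The chromosome 18 region is 1 of 4 TKO only regions within 124 kb, a stretch bounded by these regions themselves. In it 6 of 7 regions had no WT ESC peak, against 3699 of all 15383 regions, of which 235 were TKO only. Rsbn1l, Atg3 and Tbca had no WT ESC peak anywhere in the gene.

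Among EB only regions, the first by rank was a coding exon of Caprin1 (chr2:103636905-103637123), with 13 and 49.3 in WT EB replicates 2 and 3 and 7.26 in TKO ESC replicate 3. The value in replicate 3 was the highest of all gained regions. Cdc73, Top2b (12.8 and 20.4), Tcea1 (11.9 and 16.6) and Eda were also among the 10 highest. Of these, Top2b, Tcea1 and Eda also had a peak in TKO ESC replicate 2, with 10.7, 21.1 and 5.41, so that a single TKO ESC library kept them from meeting both rules. The noncoding transcript Gm13824 (10.9 and 10.4), Cubn (10.3 and 16.9), Sfrs18 (10.2 and 15.0), a splicing-related protein rich in arginine and serine, and Fnbp1l (9.99 and 16.6), a membrane-bending protein, were there too.

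The highest region of both rules was a coding exon of Rsbn1l, a gene named for its similarity to round spermatid basic protein, with 17.7 and 13.1 in TKO ESC replicates 2 and 3 and 10.6 and 35.7 in WT EB replicates 2 and 3. Ccdc34, a coiled-coil protein, had 14.0 and 10.4, then 17.1 and 20.4. Ssb, the La protein that binds new RNA polymerase III transcripts, had 9.83 and 11.2, then 9.56 and 13.9. Smarcc1, another core SWI/SNF subunit, had 10.2 and 9.64, then 9.69 and 9.32. Krr1, a ribosome assembly factor with no WT ESC peak in its gene, had 13.3 and 12.2, then 8.37 and 10.4. The others of the 10 were Zfml, Kif5b, Tpr, the Tbca intron described above and Gm13225, a member of a zinc finger gene cluster.

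That cluster on chromosome 4 held several gained regions that need care. A span of 2.04 Mb, bounded by the outermost genes that held a gained region, holds 97 regions, and 63 had no WT ESC peak. Over all 15383 regions, 3699 had none and 510 were gained. In this span, whose bounds favour a high count, 17 were gained: 10 TKO only, 3 EB only and 4 both. They fell in 13 annotated genes, mostly predicted genes and zinc finger genes such as Gm13139, Gm13225, Gm13242, Zfp534 and Zfp600, which belong to a family of similar copies. Reads can be shared among such copies, so the copy of origin is uncertain. Only 2 of the 17 regions had a peak in a knock-in library.

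Gene lists chosen for these cells put the genes in context. Of 5302 genes with a region in any of the 9 libraries, 352 held a gained region, or 6.64%, with 4.53% for TKO gains and 3.83% for EB gains. Transcripts that are long or abundant can hold more peaks, and lists differ in both, so each count is a description without a test.

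Chromatin regulators and RNA-binding proteins were the lists with the most gained genes. Of 76 chromatin regulators with a region, 14 (18.4%) held a gained one: Mtf2, Myst3, Smarcc2 and Suz12 in TKO ESC, Smarca2 and Smc3 in WT EB, and Atrx, Bptf, Hdac2, Mll5, Ncor1, Nipbl, Smarca5 and Smarcc1 in both. Mtf2 and Suz12 belong to Polycomb repressive complex 2, which methylates histone H3, and Hdac2 and Ncor1 to histone deacetylase complexes. The Hdac2 coding exon (chr10:36721204-36721481) had 14.4 and 11.5 in TKO ESC replicates 2 and 3 and 7.34 and 17.3 in WT EB. Of 86 RNA-binding and splicing genes, 16 (18.6%) held one, among them Matr3, Qk, Rbm25, Rbm39 and Sf3b1 in TKO ESC, Ddx5, Luc7l3 and Sfrs18 in WT EB, and Caprin1, Fxr1, Pspc1, Syncrip, Taf15 and Tra2b in both. Both shares exceeded 6.64%.

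Developmental lists were small, and most of their gains lay in WT EB. Of 15 endoderm and basement membrane genes with a region, 3 (20%) were EB-gained and none was TKO-gained: Cubn, Lrp2 and Dab2. They encode cubilin, megalin and an endocytic adaptor, which act together in the uptake of nutrients by visceral endoderm. The intronic regions had 10.3 and 16.9 (Cubn), 7.55 and 8.17 (Lrp2) and 5.93 and 12.6 (Dab2) in WT EB replicates 2 and 3, with no peak in TKO ESC or in any knock-in library. Each of the 3 genes had 1 to 3 WT ESC peaks elsewhere, counted over the 3 WT ESC lists without merging. Of 20 imprinted genes with a region, 3 were gained (15.0%). Igf2, a growth factor expressed from the paternal copy, was EB only in its 3′ untranslated region, with 9.57 and 10.1, no WT ESC peak in the gene and no knock-in peak. Ube3a, a ubiquitin ligase, was EB only with 7.78 and 14.0 and had 12.2 in TKO ESC replicate 2, and Kcnq1 met both rules. Of 18 Hippo pathway genes the 1 gained was Amot, with 2 EB only regions. Of 13 neural ectoderm genes, Robo1, an axon guidance receptor, was TKO only (6.70 and 4.93) and Sox4, a transcription factor of progenitors, EB only (6.64 and 6.15). Taf7l, a germ cell subunit of the TFIID complex, was TKO only (13.2 and 4.67) and the 1 gained of 5 germline and 2-cell stage genes. No gained region lay in the 6 epiblast and formative genes or the 1 mesoderm and primitive streak gene that had any region.

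Among the remaining lists, cell cycle genes (10.6%) and kinesin, dynein and tubulin genes (15.8%) lay above the 6.64% over all genes, on few gained genes. The other lists lay near or below it. Cell cycle and chromosome segregation genes numbered 5 of 47 (Atm and Smc4 in TKO ESC, Kif20b and Top1 in WT EB, Smc2 in both), and kinesin, dynein and tubulin genes 3 of 19 (Kif20b, Kif21a and Kif5b). Ubiquitin pathway genes numbered 8 of 120 and numbered zinc finger genes 5 of 77. Ribosomal protein genes numbered 1 of 21 (Rps24, 2 TKO only introns), mitochondrial respiratory and ribosome genes 1 of 34 (Ndufs1, EB only), membrane traffic genes 2 of 77 (Sec62 and Snx2) and solute carriers 1 of 70 (Slc16a1). None of 11 long noncoding and snoRNA host genes and none of 23 replication-dependent histone genes held a gained region.

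**Figure D4:**
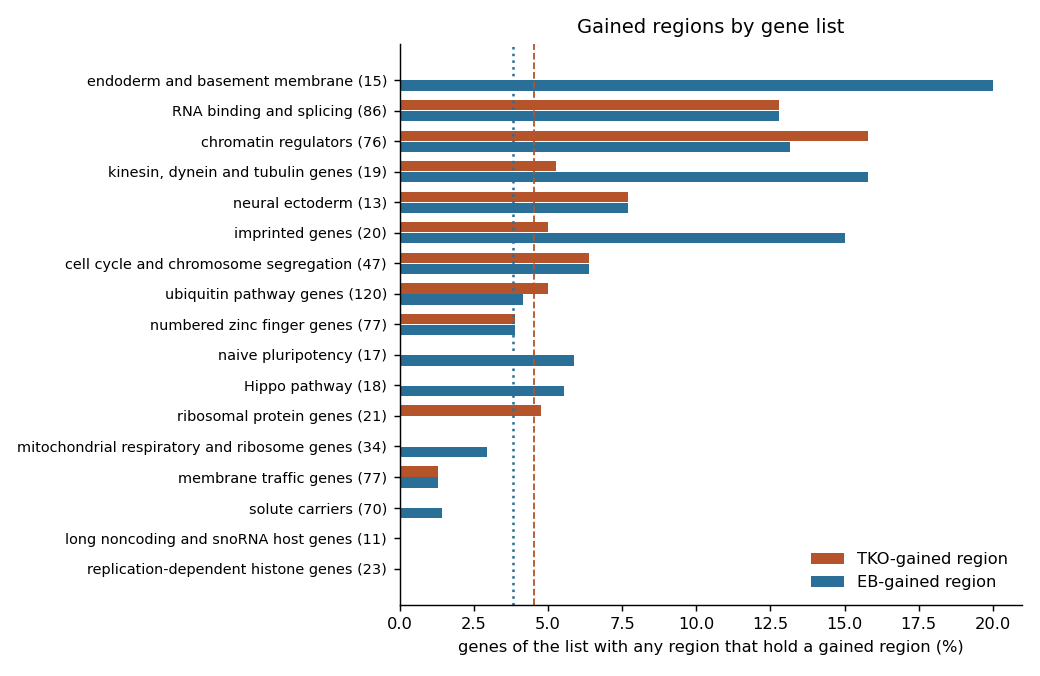
Share of genes with a TKO-gained or EB-gained region (x axis, percent of the genes of the list with any region; number in brackets) for lists with at least 10 such genes; the dashed and dotted lines mark 4.53% and 3.83%, the shares over all genes. For both gains, the chromatin, RNA-binding, cell cycle, neural ectoderm, imprinted, kinesin and ubiquitin lists stand right of the line of that gain, the last by 1 point or less, and the endoderm list is among those right of it for EB gains alone.

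The knock-in libraries, which took no part in the rule, listed about as many gained regions as regions of any kind. At least 1 of the 4 libraries had a peak in 251 of the 510 gained regions, 49.2% (95% Clopper-Pearson interval 44.8 to 53.6%). The background was 33.6% over regions without a WT ESC peak and 46.8% over all regions. The share was 46.8% for TKO only, 49.2% for EB only and 56.1% for regions of both. Among the 548 regions shared by the 3 groups it was 98.4%, and in the mirror set 57.2%. Per library, gained regions had a peak in 42.0 and 19.6% of cases in Tet2-KI ESC replicates 1 and 2, against 38.7 and 19.2% of all regions. In Tet2deltaRBD-KI ESC replicates 1 and 2 the shares were 12.5 and 2.35%, against 17.4 and 9.38%. The longest knock-in list held 10383 peaks, and the longest WT ESC list 7113.

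TKO-gained regions had a peak in 42.0 and 21.1% of cases in Tet2-KI ESC replicates 1 and 2, and in 14.5 and 1.89% in Tet2deltaRBD-KI ESC replicates 1 and 2. The means were 31.5% ± 14.7 and 8.20% ± 8.92 (SD, n = 2 each), a difference of -23.3 points, Tet2deltaRBD-KI minus Tet2-KI (two-sided exact permutation test, p = 0.333, the smallest possible). EB-gained regions had a peak in 44.4 and 21.5% against 9.45 and 2.91%, with means of 32.9% ± 16.2 and 6.18% ± 4.63 (SD, n = 2 each) and a difference of -26.7 points (exact permutation p = 0.333). Every Tet2-KI ESC library lay above every Tet2deltaRBD-KI ESC library in both sets. Lists of Tet2deltaRBD-KI ESC were shorter throughout, 4639 and 3318 peaks against 10383 and 5781, and all 15383 regions showed the same order, with means of 29.0% ± 13.8 and 13.4% ± 5.67 and a difference of -15.6 points. For the mirror set the difference was -19.6 points (exact permutation p = 0.667), and there Tet2deltaRBD-KI ESC replicate 1, with 18.6%, lay above Tet2-KI ESC replicate 2, with 17.0%. For the shared regions the difference was -33.1 points. The part of list length in the difference of the gained regions was not tested.

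**Figure D5:**
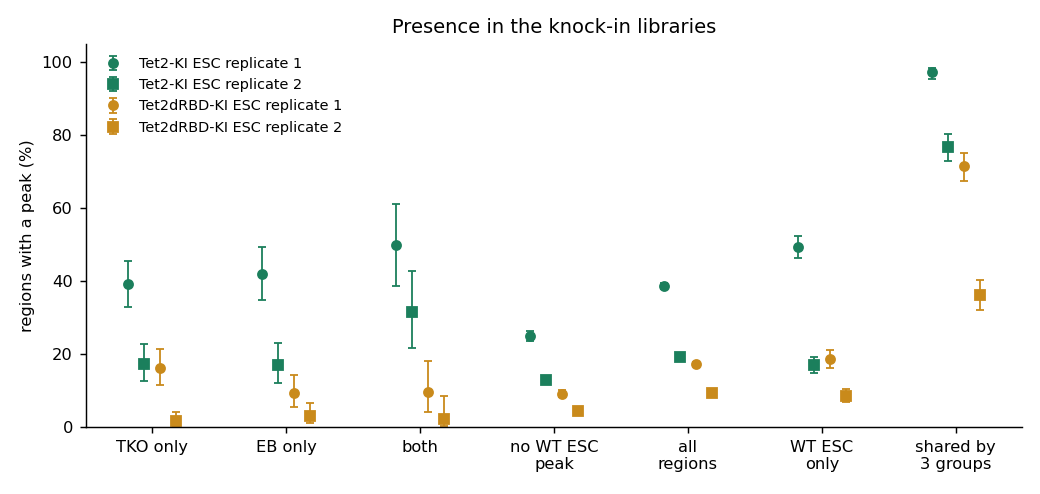
Share of regions with a peak (y axis, percent, with 95% Clopper-Pearson intervals) in each of the 4 knock-in libraries (symbols; Tet2deltaRBD-KI is written Tet2dRBD-KI) for gained sets and comparison sets (x axis). Tet2-KI ESC replicate 1 is highest and Tet2deltaRBD-KI ESC replicate 2 lowest in every set. Both Tet2deltaRBD-KI ESC libraries are under 10% for EB only regions, regions of both rules and regions without a WT ESC peak.

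A peak in both Tet2-KI ESC libraries and in neither Tet2deltaRBD-KI ESC library was listed for 41 gained regions (8.04%), among them 13 of the 82 regions of both rules (15.9%). Over regions without a WT ESC peak this pattern made up 3.70%, over all regions 4.42% and over the shared regions 10.9%, more than over the gained ones. Members with it included Krr1, Zfml, both Tbca regions, Supt16h, Fxr1, Dkc1, the pseudouridine synthase of telomerase and ribosomal RNA, Utrn, Xrn2, Sfrs18 and Hspd1, the mitochondrial chaperonin. The opposite pattern was listed for 1 region (0.196%, against 0.324% of regions without a WT ESC peak and 0.462% of all regions), a TKO only intron of Maml3, a coactivator of Notch signalling. All 4 knock-in libraries had a peak in 5 gained regions (0.980%, against 1.03% of regions without a WT ESC peak, 4.83% of all regions and 34.9% of shared regions), which lay in Psma4, a proteasome subunit, Cwc27, Ipo7, St6galnac3 and 1 intergenic place. The Psma4 coding exon, chr9:54805407-54805634, had 26.5 and 3.83 in TKO ESC replicates 2 and 3 and 16.8 and 16.4 in WT EB replicates 2 and 3.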

How the data were processed

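Mouse libraries of anti-5hmC immunoprecipitated RNA were used through the 13 peak lists, and the matching input libraries only through the authors' peak calling. Per the labels and the study's methods, the authors discarded reads of low complexity and those of ribosomal or transfer RNA (Bowtie2), trimmed with Trimmomatic, aligned to mm9 by STAR and ran MACS2 separately on every IP sample with the matching input as control (q-value below 0.05), without pooling. Versions are not given in the sources used here. The deposited intervals span 200 bp around a summit. In 9 lists a deposited value column is the fold enrichment of IP over input, a linear ratio from the authors' caller. The 4 knock-in lists were used as deposited, as positions only. Depth is unknown, so longer lists may be deeper libraries, and intervals given for shares cover counting error only.

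Groups came from sample titles. The study describes its replicates as independent experiments, and the labels do not name their cultures. Peaks were merged and annotated with Python 3.11.15, numpy 2.4.6 and scipy 1.17.1 on NCBIM37 and GENCODE M1, and drawn with matplotlib. The annotation was read at the summit with the highest fold enrichment in the defining replicates, and coding genes were preferred over others and exons over introns. Of 56538 intervals, 99.7% lay on the reference. Over 78 pairs of lists at most 1.97% of intervals were identical. Differences between libraries were tested by two-sided exact permutation tests, except for the intronic and pyrimidine shares of gained peaks, which the rule reads on the same regions in both replicates, and shares carry 95% Clopper-Pearson intervals. The selection code was run on simulated lists, in which all 400 planted regions of each kind were recovered. Planted regions had peaks in the defining libraries only, and every other region had a WT ESC peak. The run therefore checks the code alone and not how often real lists give false or missed gains. Newer symbols in gene lists were matched to GENCODE names through RefSeq synonyms.

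Regions named were the 10 highest of each set by the lowest fold enrichment in the defining replicates, those with a peak in replicate 1 of their own group, genes with at least 3 gained regions and genes of the lists. A few genes that meet these criteria are not reported here. Members and lists were chosen with earlier results of these data known. Alternatives were other overlaps, margins, fold enrichments, chromosomes, replicates and list lengths.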

Additional observations from a re-analysis of the deposited data

How the results depend on the processing

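The counts of TKO-gained, EB-gained and both regions (317, 275 and 82) stayed within 1.5 times under an overlap of 100 bp, a margin of 500 bp to WT ESC peaks, chromosomes 1 to 19 and X, lists with the prefix 1703 and lists shortened to equal length. Shortened lists gave 233, 364 and 91, in which EB gains outnumbered TKO gains. Restricting TKO ESC and WT EB lists to their upper part by fold enrichment (above each list's median), the counts were 102, 98 and 20. Peaks in all 3 replicates of the gaining group left 7, 3 and 0, and no peak in any library of the other group left 133 TKO-gained and 80 EB-gained regions. Leaving out 1 library and merging anew gave 317 to 1820 TKO-gained regions (1820 without TKO ESC replicate 3, 888 without TKO ESC replicate 2, 534 without WT ESC replicate 2). EB-gained regions ranged from 275 to 1729 (1729 without WT EB replicate 2, 436 without WT ESC replicate 2) and regions of both from 82 to 173 (173 without WT EB replicate 2, 172 without TKO ESC replicate 3, 168 without WT ESC replicate 2, 135 without WT ESC replicate 3). By construction, a rule with fewer libraries is met more often. No list is known to be deep enough to show that a peak is absent.

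The shares in replicate 1 were 2.99% and 1% with an overlap of 100 bp. Without 1 library, the knock-in differences (Tet2deltaRBD-KI minus Tet2-KI) ranged from -33.8 to -12.9 points for TKO gains and from -38.2 to -15.3 for EB gains, and the intronic difference (TKO ESC minus WT EB) from 12.5 to 17.1 points. The pyrimidine difference ranged from -0.42 to 0.12 points and reversed to 0.12 without TKO ESC replicate 2. A replicate block left the differences at -23.3, -26.7, 14.8 and -0.15 points, with exact permutation p of 0.5 for both knock-in differences, the smallest that 2 pairs allow, while the intronic and pyrimidine differences rest on the same regions in both libraries of a group and are given without a test. The samples share only a number: over 15383 regions the deviations of same-numbered TKO ESC and WT EB libraries correlated at -0.10, and those of the knock-in libraries at 0.037. A crossed pairing of TKO ESC and WT EB, chosen after seeing the data, left the intronic and pyrimidine differences at 14.8 and -0.15 points, with 0 calls, as any pairing of 2 against 2 must give.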

Other observations

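Near the imprinted gene Snrpn on chromosome 7 lay 2 gained regions outside annotated genes. They were chosen after their values were seen. A TKO only region (chr7:67118227-67118709) and an EB only region (chr7:67122113-67122329) lay 8.78 and 5.18 kb from Snrpn, which encodes a splicing protein. Their lowest fold enrichment in the defining replicates was 4.93 and 4.56.

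Fold enrichment repeated the same values many times within a library. Among TKO-gained regions in TKO ESC replicate 3, the value 4.93 occurred 20 times, 5.60 occurred 16 times and 6.27 occurred 16 times, and 52.7% of the 317 regions had a value seen at least 3 times. In TKO ESC replicate 2 this share was 40.4%, in WT EB replicate 2 it was 34.9% of the 275 EB-gained regions, and in WT EB replicate 3 it was 26.2%. Among regions that were not gained it was higher in each library, between 56.4 and 74.1%, over larger numbers of regions.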
